A study of Mus musculus with 60 samples.

Results

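Accessible chromatin in mouse dorsal root ganglia (DRG) was compared between mice that had a laminectomy (Lam), in which vertebral bone over the spinal cord is removed, and mice that had sham surgery of the sciatic nerve (Sham). Neither includes an axotomy. The comparison used 6 of the 60 samples of the series and 2 of its 4 ATAC peak lists. ATAC-seq cuts DNA with a transposase, so a peak marks a stretch of DNA that the enzyme could reach. All animals were C57BL/6 mice of 6 to 8 weeks, and the L4-L6 ganglia that supply the sciatic nerve were taken 24 h after the operation. The 3 ATAC samples of a surgery came from 1 mouse apiece, and the authors pooled them into 1 list. The other ATAC lists, used here only to place the controls, came from mice with sciatic nerve axotomy (SNA) or axotomy of the spinal dorsal columns (DCA), also 3 pooled samples each. The labels do not say how the sham operation was done, and no unoperated mice were analysed here. The whole series also holds ChIP-seq lists for 3 histone marks, from pools of 10 mice per sample, of which the Lam and Sham lists are used below.

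Because each surgery is 1 pooled list, no difference has a replicate check and no p-value was computed. Intervals are 95% Wilson intervals on shares, or counting intervals on ratios, and cover counting error only.

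The DRG holds the cell bodies of sensory neurons that feel touch, temperature and pain, wrapped by satellite glia, with Schwann cells, macrophages, vessels and connective tissue around them. Open chromatin is found mainly at promoters and enhancers, and it is a property of the mixed tissue here. A site in 1 list only may reflect a change within cells or a change in the mix of cells, and fewer cells of a type and less access per cell cannot be told apart.

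The starts below belong to genes with a peak at an end in 1 control list and no peak within 1 kb of either end in the other. The peak itself also overlapped no peak of the other list, a limit chosen after the values were seen. These starts are the 2 with the highest −log10 p in each direction among those in the promoter table. Each line gives the 250 bases before a RefSeq start (GRCm38.p6, which is mm10), 5′ to 3′ on the strand of the gene, with the bases covered by the peak in capitals. Dpm3, a subunit of the enzyme that makes dolichol phosphate mannose, and Trpm3, a heat-activated channel of sensory neurons, had the peak in Lam. Lrrtm4, a synaptic adhesion protein, and Ndufs4, a subunit of mitochondrial complex I, had it in Sham. The stretches are chr3:89266211-89266460 on the plus strand, chr19:22138796-22139045 on the plus strand, chr6:80018627-80018876 on the plus strand and chr13:114388095-114388344 on the minus strand, in that order.
Dpm3: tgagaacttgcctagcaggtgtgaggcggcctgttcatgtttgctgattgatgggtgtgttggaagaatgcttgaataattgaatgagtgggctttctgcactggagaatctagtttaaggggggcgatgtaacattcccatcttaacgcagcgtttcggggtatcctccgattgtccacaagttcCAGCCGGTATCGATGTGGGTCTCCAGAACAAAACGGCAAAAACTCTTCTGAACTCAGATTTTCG
Trpm3: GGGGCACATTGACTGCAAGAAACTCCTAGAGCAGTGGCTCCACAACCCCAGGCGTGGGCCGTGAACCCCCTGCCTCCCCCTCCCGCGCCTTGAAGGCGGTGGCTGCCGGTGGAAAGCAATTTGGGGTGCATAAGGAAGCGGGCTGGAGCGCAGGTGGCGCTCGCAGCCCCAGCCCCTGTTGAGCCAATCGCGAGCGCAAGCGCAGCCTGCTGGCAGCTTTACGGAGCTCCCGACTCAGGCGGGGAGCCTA
Lrrtm4: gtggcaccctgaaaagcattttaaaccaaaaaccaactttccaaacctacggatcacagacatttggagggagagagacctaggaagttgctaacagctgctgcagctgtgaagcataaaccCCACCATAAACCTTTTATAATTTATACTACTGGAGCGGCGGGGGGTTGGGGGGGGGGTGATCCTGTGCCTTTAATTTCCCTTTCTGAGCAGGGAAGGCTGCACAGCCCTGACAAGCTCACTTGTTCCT
Ndufs4: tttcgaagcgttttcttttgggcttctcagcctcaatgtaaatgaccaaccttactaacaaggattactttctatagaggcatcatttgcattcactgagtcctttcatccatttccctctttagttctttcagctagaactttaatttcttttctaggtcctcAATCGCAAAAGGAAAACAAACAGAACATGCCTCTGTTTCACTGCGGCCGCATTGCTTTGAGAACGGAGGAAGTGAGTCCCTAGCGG
The peak covered 64 of these 250 bases at Dpm3, all 250 at Trpm3, 128 at Lrrtm4 and 86 at Ndufs4. The share of G and C was 47.6%, 66.4%, 49.2% and 42.0% in the same order. None of the 6 motifs searched below occurred in these 4 stretches.

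Most strong sites of either control list had a peak in the other, and most weak ones did not. The Lam list held 158160 peaks and the Sham list 153556, with median widths of 422 and 434 bp, covering 79.4 and 78.8 Mb. The authors' −log10 q, the significance of a peak within its own list, was at least 5 for 20850 Lam peaks and 21157 Sham peaks, called strong from here on. The lists do not give read totals. The pile-up of reads at the background level, recovered from the deposited fold and p, was 17.23 reads in Lam and 16.19 in Sham, 6.42% more in Lam, beside 17.28 in SNA and 18.38 in DCA. A median peak stood on 37 reads in Lam and 36 in Sham.

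Of the Lam peaks, 93971 (59.4%; interval 59.2 to 59.7) had no Sham peak overlapping by even 1 bp. Of the Sham peaks, 89636 (58.4%; 58.1 to 58.6) had no Lam peak. Among strong peaks these numbers were 3141 of 20850 in Lam (15.1%; 14.6 to 15.6) and 3268 of 21157 in Sham (15.4%; 15.0 to 15.9), and the intervals overlapped. When the partner also had to be strong, 38.4% of the strong Lam peaks and 39.3% of the strong Sham peaks had none. At a −log10 q of at least 10, 57 of 9317 Lam peaks (0.612%) and 118 of 9586 Sham peaks (1.23%; 1.03 to 1.47) stood in 1 list, and the intervals no longer overlapped. Above 20 it was 2 of 5492 in Lam and 2 of 5606 in Sham. The share in 1 list thus went from 76.5% of the weakest Lam peaks to 0.036% of the strongest, and in Sham from 76.4% to 0.036%.

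**Figure D1:**
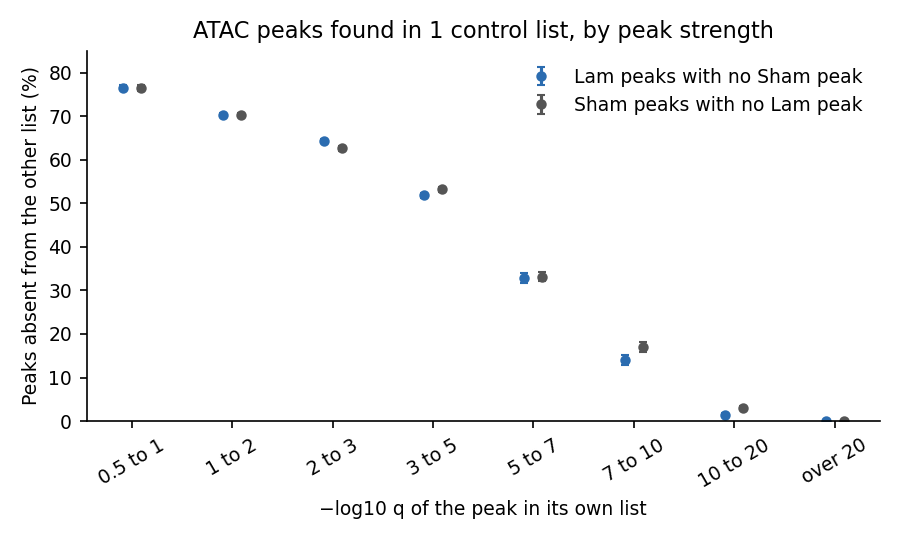
Share of peaks with no overlapping peak in the other control list (y axis, %) by the −log10 q of the peak in its own list (x axis, classes), for Lam (blue) and Sham (grey), with 95% Wilson intervals. Both series go from about 76% in the weakest class to 0.036% above 20, with Sham above Lam in the classes from 7 to 20.

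Peaks in 1 list were narrower than shared ones and fewer of them lay at gene ends. Their median width was 362 bp in Lam and 369 bp in Sham, against 556 and 575 bp for shared peaks. Within 1 kb of an end of a protein-coding gene lay 5.55% (5.40 to 5.69) of the Lam-only and 4.76% (4.62 to 4.90) of the Sham-only peaks, against 23.7% of the shared peaks of either list. Among strong peaks it was 8.18% (7.27 to 9.19) of the Lam-only and 6.43% (5.64 to 7.32) of the Sham-only sites, against 56.5% and 55.9% of the shared ones. More of the Sham-only peaks lay between genes (45.6% against 40.5% of the Lam-only peaks), and fewer lay inside genes away from their ends (49.6% against 54.0%).

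Many of the strong sites seen in 1 control list were also in the list of an injury. The DCA list held 47.6% (45.8 to 49.3) of the strong Lam-only sites and the SNA list 50.3% (48.6 to 52.0). Of the strong Sham-only sites, DCA held 43.1% (41.4 to 44.8) and SNA 48.5% (46.8 to 50.2). Laminectomy is the control for dorsal column axotomy, yet among the strong Lam-only sites found in just 1 of the injury lists, 46.0% (43.1 to 49.0) were in DCA and the remainder in SNA. For the Sham-only sites that share was 42.2% (39.4 to 45.1), and the intervals overlapped. Neither injury list held 33.8% (32.1 to 35.5) of the strong Lam-only sites and 36.9% (35.3 to 38.6) of the strong Sham-only sites. Of the strong sites shared by both controls, the DCA list held 94.0% and the SNA list 94.9%, counted over Lam peaks. The SNA list is larger than the others, with 174605 peaks, and the DCA list had 164365.

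The difference between the 2 control lists followed gene density. In 1 Mb windows of the autosomes with no protein-coding gene, Lam had 5701 peaks and Sham 7312, a log2 ratio of −0.36 (−0.41 to −0.31). With 1 to 2 genes the ratio was −0.20 (−0.23 to −0.17), with 3 to 5 genes −0.056 (−0.081 to −0.031) and with 6 to 10 genes 0.043 (0.022 to 0.063). It was 0.17 (0.15 to 0.19) with 11 to 20 genes and 0.22 (0.19 to 0.24) with 21 to 40. The 48 windows with 41 to 67 genes gave 0.20 (0.15 to 0.25). Sham was thus the higher list in gene-poor DNA and Lam in gene-rich DNA. Strong peaks ran the same way but less far at the gene-rich end, from −0.42 (−0.62 to −0.22) without genes to 0.093 (−0.018 to 0.20) in the richest windows.

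Which control stood apart from the other lists depended on the peaks counted. In windows of at most 2 genes lay 17.6% (17.4 to 17.8) of the Sham peaks, against 14.4% in Lam, 14.5% in SNA and 15.4% in DCA. For strong peaks the shares were 11.1% in Sham, 11.01% in SNA, 9.24% (8.85 to 9.64) in Lam and 10.4% (10.0 to 10.7) in DCA. With all peaks it was therefore Sham that lay outside the other 3 lists, and with strong peaks it was Lam. In windows of 11 or more genes Sham had the lowest share of all peaks (41.1%) and Lam the highest (45.4%), with SNA at 43.3% and DCA at 43.1%. The depth of the lists, given above, also differed, and its part in this gradient was not tested.

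**Figure D2:**
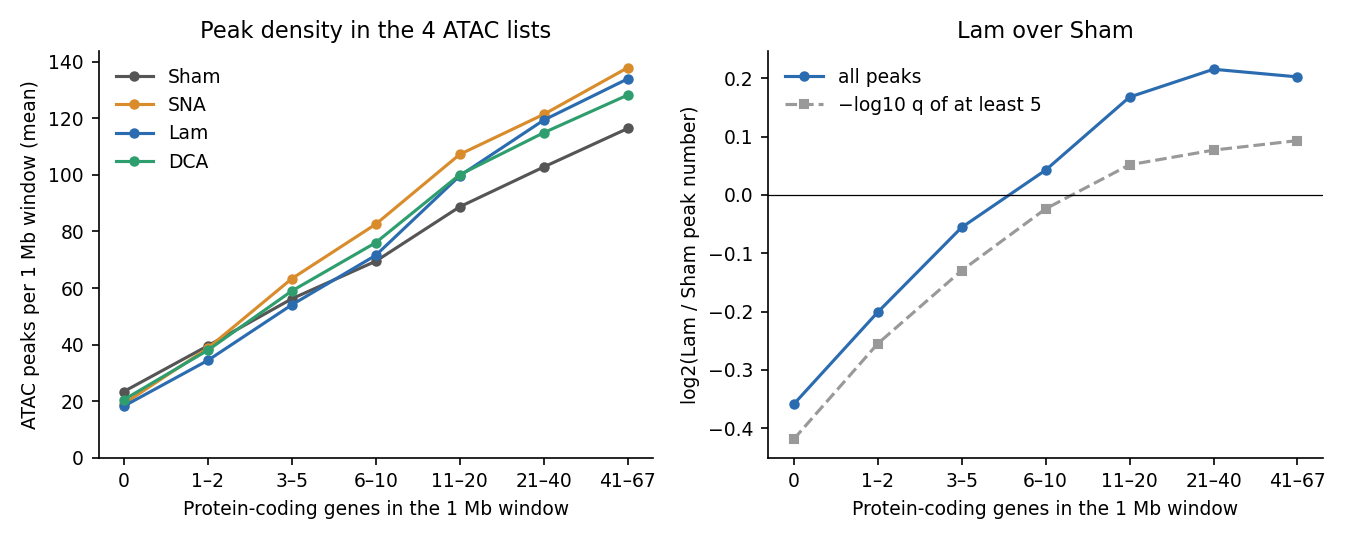
Left, mean number of ATAC peaks per 1 Mb window (y axis) by the number of protein-coding genes in the window (x axis, classes) for the 4 ATAC lists. Right, log2 ratio of the Lam to the Sham peak number in the same classes, for all peaks (circles) and peaks with −log10 q of at least 5 (squares), each list being 1 pool of 3 samples. The ratio goes from −0.36 with no gene to 0.20 with 41 to 67 genes for all peaks.

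Whole chromosomes ordered themselves in a similar way. Lam had more peaks than Sham on 12 of 19 autosomes. The highest log2 ratio was 0.30 on chromosome 11, with 10680 Lam and 8688 Sham peaks and 13.2 genes per Mb. The lowest was −0.21 on chromosome 3, with 6682 and 7753 peaks and 6.14 genes per Mb. Chromosomes 9 (0.21) and 19 (0.17) followed at the upper end, and 13 (−0.19) and 18 (−0.17) at the lower. Chromosome 17 departed from the order, with 11.1 genes per Mb and a ratio of −0.022. Across the 19 autosomes of these 2 lists, Pearson's r between the ratio and genes per Mb was 0.68 and Spearman's rho 0.72. Without chromosomes 11 and 7, the farthest from the median gene density, they were 0.61 and 0.67. These coefficients describe 2 lists whose chromosomes share a library and a depth.

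**Figure D3:**
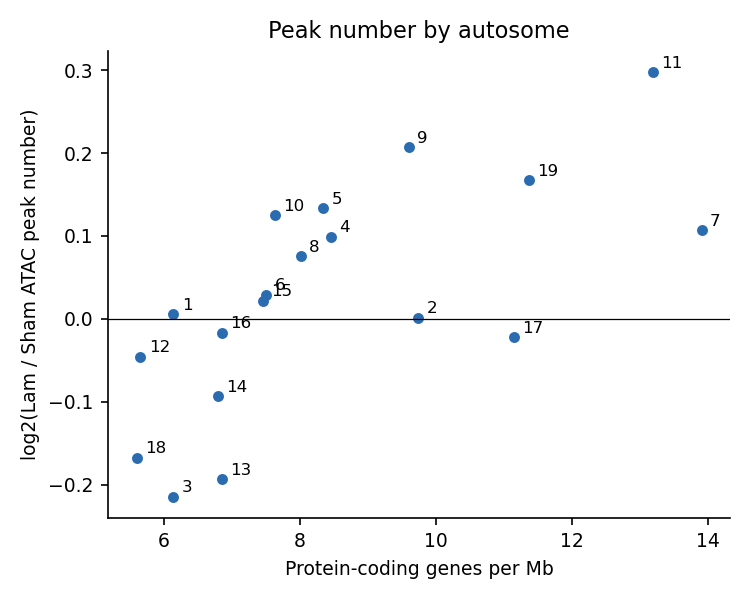
Log2 ratio of Lam to Sham ATAC peak number (y axis) against protein-coding genes per Mb (x axis), 1 point per autosome, numbered, each from 1 pooled list per surgery. Chromosome 11 has the highest ratio, 0.30, and chromosome 3 the lowest, −0.21.

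Windows of 1 Mb were also counted without the limit to autosomes used for the gene density classes. Of these 2509 windows, 1047 (41.7%) had more Lam peaks and 1366 (54.4%) more Sham peaks, while the largest differences were in favour of Lam. On chromosome 5 from 123000001 to 124000000, a window of 24 genes that includes the calcium channel gene Orai1 and the histone methyltransferase gene Setd1b, Sham had 136 peaks and Lam 220, with 191 in SNA and 167 in DCA. Strong peaks there numbered 30 in Sham and 32 in Lam. On the same chromosome from 121000001 to 122000000, around Ptpn11 and Atxn2, the numbers were 158 in Sham and 235 in Lam. The other 3 windows highest in Lam held Runx3 and Clic4 on chromosome 4 (141 and 217), Vps53 and Abr on chromosome 11 (112 and 178), and Cacna1a and Junb on chromosome 8 (180 and 246). These 5 windows held between 17 and 36 genes each. The window highest in Sham, on chromosome 2 from 20000001 to 21000000, holds only Etl4 and Arhgap21 and had 73 Sham and 33 Lam peaks. The next were Tbc1d5 and Plcl2 on chromosome 17 (82 and 46), Pax6 and Wt1 on chromosome 2 (81 and 46), Ppp1r9a and Pdk4 on chromosome 6 (74 and 39) and Zfp521 on chromosome 18 (60 and 28). Those 5 held between 2 and 8 genes.

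Peak numbers were then counted per gene, over the gene and 10 kb on either side. Of 21883 protein-coding genes, 3760 (17.2%) had at least 3 more peaks in Lam and 1790 (8.18%) at least 3 more in Sham, with a median difference of 0. The split followed the surroundings of a gene. With 1 to 2 genes in the megabase, 24.0% of genes had more peaks in Sham and 11.9% more in Lam, whereas with 11 to 20 genes the shares were 7.05% and 19.7%.

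The genes with the most added peaks in Lam were long. Rbms3, which encodes an RNA-binding protein, had 101 peaks in Sham, 165 in Lam, 157 in SNA and 137 in DCA. All 11 of its 100 kb stretches had more peaks in Lam, by at most 10 peaks each, so the difference was spread along the gene. Atrnl1, which encodes an attractin-like membrane protein, had 60 in Sham and 116 in Lam (126 in SNA, 98 in DCA). Erc2, a scaffold of the presynaptic active zone, had 93 and 136 (159 and 110). Asic2, a subunit of acid-sensing ion channels, had 81 and 120 (133 and 132). Robo2, a receptor for the axon guidance ligand Slit, had 128 in Sham and 164 in Lam, and stood out from the first 4 in that SNA had fewest, 79. Prkg1, the cGMP-dependent kinase, had 66 and 96, and the transcription factor gene Camta1 had 134 and 164. Tmem132d (64 and 93), Bcas3 (29 and 57) and Anks1b (60 and 88) completed the 10. Their strong peaks numbered 74 in Sham and 87 in Lam in all, so most of the added peaks were weak.

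The genes with the most added peaks in Sham were as long. The median number of genes in their megabase was 1, with a range of 1 to 7, and in the Lam set it was 2.5, with a range of 1 to 8. Robo1, the neighbour of Robo2 on chromosome 16 and likewise a Slit receptor, had 71 peaks in Sham and 38 in Lam, with 28 in SNA and 43 in DCA. Counted over all peaks, the pair of receptors thus differed in opposite directions, over chr16:72027518-73047491 for Robo1 and chr16:73891976-75447443 for Robo2. Their strong peaks did not, with 4 in Sham and 5 in Lam at Robo1 and 20 and 22 at Robo2. In Robo1, 10 of 11 stretches of 100 kb had more Sham peaks, and in Robo2, 12 of 16 had more Lam peaks. Etl4 had 62 in Sham and 31 in Lam, while SNA had 81. Lsamp, a neuronal adhesion protein, had 78 and 52. Elmo1, which acts in engulfment and Rac activation, had 43 and 21, but 52 in SNA and 47 in DCA. Pde4d, a phosphodiesterase that degrades cAMP, had 50 and 28, with more Sham peaks in 13 of 14 stretches. Ppargc1a, a coactivator of mitochondrial biogenesis, had 64 and 43. The urea transporter gene Slc14a2 (46 and 25), the receptor phosphatase gene Ptprd (74 and 53), the neurexin-family gene Cntnap2 (139 and 118) and the dynein subunit gene Dync1i1 (47 and 27) completed the 10. Strong peaks in these genes numbered 58 in Sham and 53 in Lam, including 14 and 6 at Cntnap2 and 3 and 7 at Ppargc1a. The median gene length was 957 kb in the Lam set and 960 kb in the Sham set, against 17.2 kb over all genes, and a long gene has more peaks that can differ.

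**Figure D4:**
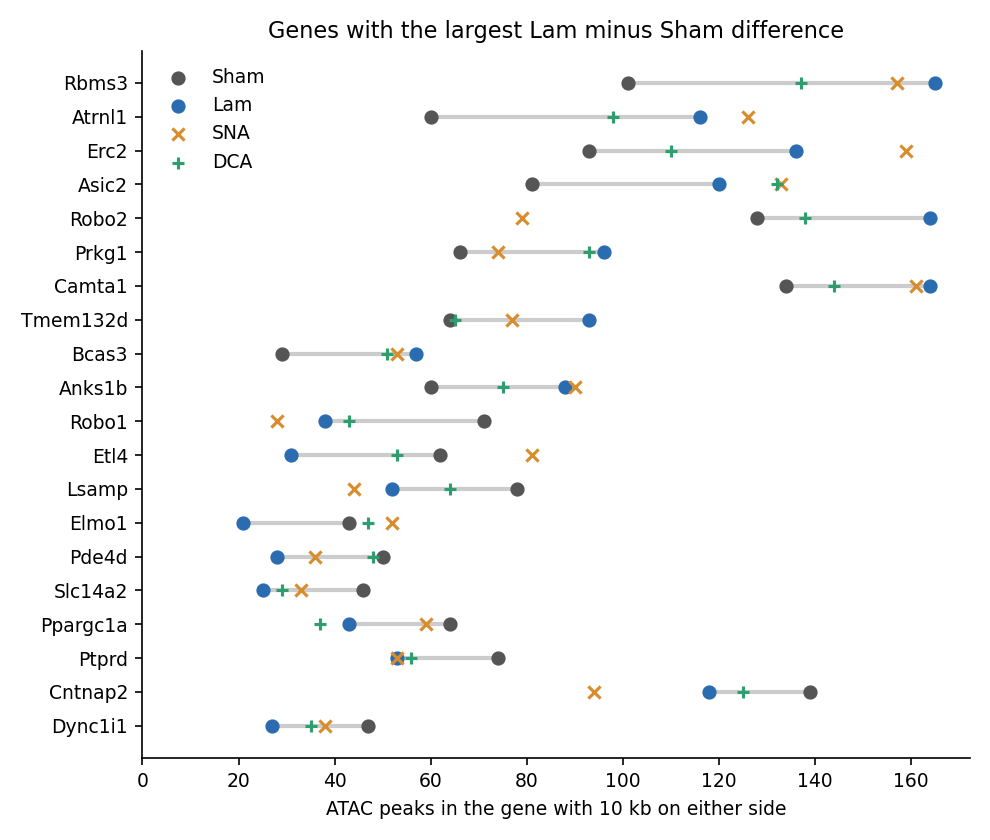
Number of ATAC peaks (x axis) in the 10 genes with the largest difference in favour of Lam (upper) and of Sham (lower), over the gene and 10 kb on either side, in the pooled lists of Sham (grey), Lam (blue), SNA (orange cross) and DCA (green plus). The Lam set goes from 29 to 57 peaks at Bcas3 up to 101 to 165 at Rbms3, and from 71 down to 38 peaks at Robo1 in the Sham set.

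Ends of genes were compared next, within 1 kb of either end, since the start holds the promoter and the gene table has no strand. A peak was present in both lists at 14171 genes, in Lam alone at 1041 (4.76%) and in Sham alone at 1022 (4.67%). At 41 of the Lam and 61 of the Sham genes the peak itself had a partner in the other list whose edge lay just beyond 1 kb. Leaving these out, a limit chosen after the values were seen, gave 1000 genes in Lam (4.57%) and 961 in Sham (4.39%). Counting strong peaks only, 110 genes had one in Lam and no peak in Sham (0.503%), and 97 had the reverse (0.443%). Within 5 kb of an end the numbers were 681 in Lam and 882 in Sham, so which surgery had more gene ends of its own depended on the window.

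Under that limit the 10 strongest Lam peaks at an end belonged to genes of mixed function. Dpm3, shown above, had a peak of 640 bp with a −log10 p of 13.3 and 68 reads, on H3K9ac and H3K27ac peaks of both controls. Trpm3 had a peak of 460 bp with 55 reads, on an H3K27me3 peak of the Lam list, although the whole gene had fewer peaks in Lam (15) than in Sham (27). Hpn, which encodes the serine protease hepsin, followed with 73 reads and Mapk8ip2, a scaffold of the JNK pathway, with 81. H2-DMb2 acts in peptide loading on MHC class II, and its peak had 61 reads and was absent from SNA. Meikin (55 reads), Noxred1 (51), Zfp114 (51), Sergef (59) and Wdr6 (89) were the others. The H2-DMb2 and Sergef peaks lay at the end away from the start, and for Meikin and Zfp114 the side was not known. The SNA list held 8 of these 10 peaks and the DCA list all 10.

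Lrrtm4 led the 10 strongest Sham peaks at an end. It had a 316 bp peak with a −log10 p of 20.5 and 66 reads at its start, listed in SNA and DCA but not in Lam. Ndufs4 had 63 reads over 812 bp, and the asparaginase gene Asrgl1 had 61 reads over 614 bp, both on H3K9ac and H3K27ac peaks of the 2 controls. Sfi1, which encodes a centrin-binding protein, had 56 reads in a peak that neither injury list held. On the X chromosome lay 3 of the 10: Tbc1d25 (55 reads), Mamld1 (54) and Slc25a14 (53), a mitochondrial carrier. Zfp820 (54), the linker histone gene H1f5 (53) and the olfactory receptor gene Olfr1411 (53) were the others. The Olfr1411 peak lay at the end away from the start, and for Sfi1 the side was not known. The SNA list held 8 of these 10 peaks and the DCA list 8. In both directions most of these peaks were thus in the lists of both injuries and missing from 1 control list.

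The promoter table of RefSeq gives 21262 windows of 300 bases, 250 before and 50 after a start, for 17491 (79.9%) of the genes. A Lam peak alone met 1040 windows (4.89%) and a Sham peak alone 943 (4.44%). The Lam-only promoters had a median GC content of 54.8% and the Sham-only ones 53.3%, against 62.7% for promoters open in both and 46.0% for those open in neither. Of promoters open in 1 list, 36.5% (28.6 to 45.2) were Lam's at a GC content of 40 to 45%, 50.9% (46.9 to 54.9) at 50 to 55% and 62.2% (53.2 to 70.4) at 65 to 70%. At 70% and above it was 49.3% (37.7 to 60.9). The lean toward Lam in GC-rich promoters, up to 70%, has the same direction as that in gene-rich windows.

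Short motifs did not separate the 2 sets of promoters beyond their intervals. Both strands were searched, and a match is a description of letters, not of binding. TGANTCA, the site of AP-1, the dimer of Fos and Jun proteins, was in 9.04% (7.44 to 10.9) of Lam-only and 8.06% (6.49 to 9.97) of Sham-only promoters, against 6.99% of all. The cAMP response element TGACGTCA was in 0.865% and 1.06% (all, 2.23%). The E-box CACGTG, bound by clock proteins among others, was in 6.15% and 7.32% (all, 7.84%). The glucocorticoid element was in 0.288% (0.098 to 0.845) and 0.636% (0.292 to 1.38), against 0.442% of all. The core of the site of CTCF, a protein that insulates chromatin domains, was in 3.17% and 3.08% (all, 2.34%), and ACAAAG, a core of the site of SOX proteins, in 18.5% and 19.6% (all, 16.8%).

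Of the 10 strongest peaks in 1 list, 7 in Lam and 5 in Sham lay between genes. The strongest Lam-only peak, chr2:181931159-181931406, lay 15.0 kb from Gm40035, stood on 173 reads with a −log10 p of 106.5, and was in neither injury list. A Sham peak lay within 1 kb of it. No other Lam-only peak had a −log10 p above 25.3, the value of the next, 122 kb from Bambi on chromosome 18. A 745 bp peak inside Dysf, the gene of the membrane repair protein dysferlin, had 95 reads and lay on H3K27ac peaks of both controls. The next had their nearest genes in Col19a1, Gm38664, Pdp1, AY761185 and Acot5. Peaks in Bcl3, an NF-κB regulator (80 reads), and at the start of Chadl (90 reads) ended the 10. The AY761185, Bcl3 and Chadl peaks also had a Sham peak within 1 kb. The SNA list held 9 of the 10 and the DCA list 7.

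The strongest Sham-only peak, chr8:19698792-19699028, lay 5.28 kb from 4930467E23Rik with 89 reads and was in SNA but not DCA. A peak inside Abca12, a lipid transporter of the skin, had 71 reads, and one 196 kb from Mageb18 on the X chromosome had 70. Peaks inside Sfi1 (68 reads), Cmtm4 (70) and Arhgap28 (68) were in 1 injury list or none, and the Arhgap28 peak had a Lam peak within 1 kb. The remaining 4 had Cdh2, Lrrtm4, Tmem167 and Sim1 as nearest genes, the first at 1559 kb. The SNA list held 7 of the 10 and the DCA list 6. No map of repeated sequence was used, so peaks in duplicated DNA were not set apart.

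Lists of genes were then used to ask whether programmes that surgery could touch differed between the controls. The number of peaks over all protein-coding genes was 143255 in Lam and 131362 in Sham, a log2 ratio of 0.13, and each list is read against that. The 30 genes of the injury response, the regeneration-associated set switched on in axotomised sensory neurons, had 220 peaks in Lam and 175 in Sham, a log2 ratio of 0.33 (0.044 to 0.62). At least 3 more peaks were found in Lam for 12 of the 30 and in Sham for 1, against 17.2% and 8.18% of all genes, with a median difference of 0. The interval includes the ratio over all genes. Atf3, a stress-induced transcription factor and a marker of axotomised neurons, had 1 peak in Sham, 6 in Lam, 6 in SNA and 7 in DCA. Stat3, the cytokine-activated transcription factor, had 7 in Sham, 15 in Lam, 20 in SNA and 9 in DCA, and Socs3, its inhibitor, had 4, 7, 7 and 5. Gap43, a growth cone protein, had 1, 4, 8 and 6 in the same order, and Arg1, arginase, had 0, 3, 5 and 3. Tubb3, neuronal tubulin, was the gene with at least 3 more in Sham, with 13 in Sham and 8 in Lam. By smaller differences, others such as Klf7 (19 and 17) and Jun (4 and 2) also had fewer in Lam. The Lam and SNA numbers are both read against the same Sham list. At the ends of these genes a peak was present in both controls for 24 of 30, and only Vip (Lam) and Sprr1a (Sham) had one in 1 list.

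Strong peaks of the injury list numbered 38 in Sham and 44 in Lam, so most of its added peaks were weak. The 28 immediate early genes, which neurons switch on within minutes of activity, had 153 peaks in Lam and 139 in Sham (log2 ratio 0.14, −0.19 to 0.47). The growth factor response gene Egr3 (3 in Sham, 7 in Lam), the phosphatase gene Dusp1 (5 and 8) and Ier3 (3 and 7) had more in Lam, and Fosl1 (8 and 4) more in Sham. Fos had 6 in Sham and 5 in Lam, and Egr1 2 and 4. The 20 glucocorticoid-responsive genes, targets of the stress hormone receptor, had 159 in Lam and 165 in Sham (−0.053, −0.37 to 0.26). Fkbp5, a chaperone that the receptor induces, had 13 in Sham, 20 in Lam, 18 in SNA and 25 in DCA. Zbtb16 (35 and 31), Nr3c2 (22 and 17) and Errfi1 (8 and 4) had more in Sham. The 20 clock genes had 212 in Lam and 174 in Sham (0.28, −0.0043 to 0.57). Rora, an activator of the clock gene Arntl, had 40 in Sham and 59 in Lam, and made up 19 of that difference, while Per1 had 6 and 8. At least 3 more peaks were found in Lam for 6 of the 20 and in Sham for 3, against 17.2% and 8.18% of all genes. The 3 were Per3 (15 in Sham and 12 in Lam), Bhlhe41 (7 and 4) and Rorb (5 and 2).

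The 25 sensory neuron genes had 425 peaks in Lam and 359 in Sham (log2 ratio 0.24, 0.041 to 0.45), with 10 at least 3 peaks higher in Lam and 4 in Sham, against 17.2% and 8.18% of all genes, and a median difference of 2. This interval too includes the ratio over all genes. The sodium channels of pain-sensing neurons Scn9a (10 in Sham, 20 in Lam), Scn10a (17 and 29) and Scn11a (12 and 18), the heat and capsaicin receptor gene Trpv1 (9 and 15) and the mechanically gated channel gene Piezo2 (69 and 79) were higher in Lam. The cold receptor gene Trpm8 (15 and 12), P2rx3 (12 and 7), Mrgprd (8 and 5) and Pou4f1 (8 and 5) were higher in Sham. Strong peaks of the list numbered 39 in Lam and 46 in Sham, the opposite direction. The neurotrophin receptor gene Ntrk3 alone went from 8 strong peaks in Sham to 1 in Lam while its total went from 54 to 68. The 30 genes of ion channels in pain had 710 and 655 (0.12, −0.037 to 0.27), which is close to the ratio over all genes. Among them Cacna1a, the P/Q-type calcium channel gene, had 53 in Sham and 79 in Lam, Hcn2, a pacemaker channel gene, had 6 and 12, and Grik1, a kainate receptor gene, had 39 and 28.

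The 30 axon guidance and adhesion genes had 1024 peaks in Lam and 1174 in Sham (log2 ratio −0.20, −0.32 to −0.076), with 18 at least 3 peaks higher in Sham and 6 in Lam, and a median difference of −3. Over all genes these shares were 8.18% and 17.2%, and over genes with 1 to 2 genes in the megabase 24.0% and 11.9%. Within 1 kb of the gene ends alone the direction turned, with 43 peaks in Lam and 38 in Sham. Besides Robo1, the netrin receptor gene Dcc had 22 in Sham and 8 in Lam (8 in SNA, 20 in DCA), the ephrin gene Efna5 22 and 9, and the contactin gene Cntn4 35 and 16. Contactin gene Cntn5 had 59 and 45, including 7 strong peaks in Sham and 0 in Lam. Besides Robo2, those higher in Lam included Plxna4 (68 and 82), Plxna2 (36 and 40), Nrp1 (5 and 9) and Ntn1 (24 and 28). The median number of genes in the megabase was 2 for this list, against 16 over all genes, and Sham had more peaks in gene-poor windows in general. The median gene length was 448 kb for this list. It was 17.2 kb over all genes and 86.6 kb over genes with 1 to 2 genes in the megabase. The part of gene density and of gene length in this difference was not tested.

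**Figure D5:**
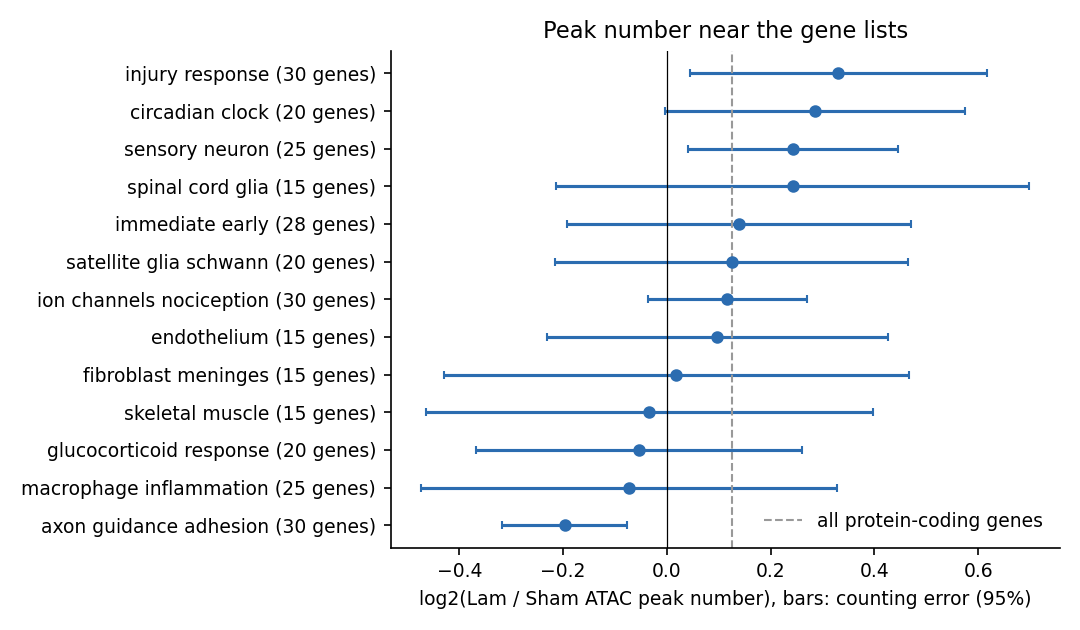
Log2 ratio of Lam to Sham ATAC peak number (x axis) over each gene list with 10 kb on either side, 1 pooled list per surgery, with 95% counting intervals that treat peaks as independent. The dashed line is the ratio over all protein-coding genes, 0.13, with a peak near several genes counted at each. The interval of the axon guidance and adhesion list lies to the left of 0, and those of the injury response and sensory neuron lists lie to the right of 0 and include the dashed line.

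Marker lists of the cells that the dissection could hold were checked at gene ends and by peak number. Peaks at an end of a gene were present for 22 of 25 sensory neuron genes in Lam and 21 in Sham, and for 16 and 15 of 20 genes of satellite glia and Schwann cells. They were also present for 14 and 14 of 25 macrophage and inflammation genes, for 11 and 10 of 15 genes of spinal cord glia and for 9 and 11 of 15 muscle genes. Over all 21883 genes the numbers were 15212 in Lam and 15193 in Sham. In peak number the glial list had 145 in Lam and 133 in Sham, the macrophage and inflammation list 97 and 102, the endothelial list 153 and 143, the fibroblast and meninges list 80 and 79, the muscle list 85 and 87 and the spinal cord glia list 84 and 71. The intervals of the log2 ratio of these 6 lists included 0 and the ratio over all genes. That of spinal cord glia, 0.24 (−0.21 to 0.70), was as high as that of the sensory neuron list. Among macrophage genes C1qa had 4 peaks in Sham and 0 in Lam, and Itgam, the integrin of myeloid cells, 10 and 5. Il1b had 5 and 2, Adgre1, which encodes F4/80, 7 and 3, and Csf1r 8 and 5. Irf8 (4 and 8) and Cx3cr1 (4 and 7) were higher in Lam, and C1qb, near C1qa, had 1 in Sham and 3 in Lam. The part of cell mix in the differences between the controls was not tested.

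Histone marks of the same 2 surgeries were set beside the ATAC sites that stood in 1 list. If a site of Lam alone carried a mark more in Lam, its share of marks in Lam would exceed that of Sham-only sites. For H3K27ac, found at active promoters and enhancers, 75.3% (74.1 to 76.5) of the Lam-only sites with the mark in 1 control list had it in Lam, and so had 77.0% (75.7 to 78.2) of the Sham-only sites. For H3K27me3, found in repressed chromatin, the shares were 65.6% (64.9 to 66.2) and 64.8% (64.1 to 65.4). The H3K27ac list is larger in Lam (67311 peaks against 43803), as is that of H3K27me3 (154055 against 122953), and at peaks shared by both controls the shares were 81.7% and 65.1%, counted over Lam peaks. For H3K9ac, whose lists were of near equal size (50667 in Lam and 50332 in Sham), the shares were 37.7% (36.3 to 39.1) and 39.3% (37.8 to 40.8). At strong sites H3K9ac gave 31.9% (26.3 to 38.1) for Lam-only and 47.2% (40.9 to 53.6) for Sham-only sites, 235 of each, and these intervals did not overlap. The Lam list of H3K9ac met 8.66% of the strong Lam-only and 8.75% of the strong Sham-only sites, with overlapping intervals. The Sham list met 11.4% (10.3 to 12.5) of the Lam-only and 9.15% (8.21 to 10.2) of the Sham-only sites. At shared peaks the Lam share of H3K9ac in 1 list was 42.2%, and at shared strong peaks 54.1%, counted over Lam peaks. Over all sites in 1 ATAC list, the intervals of Lam-only and Sham-only sites overlapped for all 3 marks. Of strong Lam-only sites, 12.9% lay on an H3K27ac peak and 21.3% on an H3K27me3 peak of Lam. Of strong Sham-only sites, 6.64% lay on an H3K27ac peak and 13.6% on an H3K27me3 peak of Sham. These shares come from mark lists of unlike size. The larger Lam lists met 10.6% (H3K27ac) and 20.3% (H3K27me3) of the strong Sham-only sites. The Sham lists met 8.50% and 13.6% of the strong Lam-only sites.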

How the data were processed

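ATAC peaks came from 12 samples, 3 per surgery, which the authors pooled into 1 list each, per the labels. The deposited lists give a fold ratio over background, −log10 p and −log10 q for each peak, used only within that list. The build is mm10, per the submitters' processing notes. The aligner and peak caller are not given in the sources used here. The deposited H3K9ac, H3K27ac and H3K27me3 lists have the same units.

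Repeated intervals were collapsed. Reads were recovered from fold and p as the best whole number. That number gave the deposited −log10 p to within 0.003 for 99.9974% of Sham and 99.9975% of Lam peaks. Genes came from RefSeq (GRCm38.p6). That table has no strand, so both gene ends were used. Overlap functions were tested on simulated peaks (Python 3.11.15, pandas 2.3.3, numpy 2.4.6). Peak names carry ranks up to 500018 in Lam and 500095 in Sham, of which 46.7% and 44.6% are listed, so each list is part of a longer one.

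Genes were named by rank: the 10 strongest peaks in 1 list, the 10 largest differences in peak number and the 10 strongest peaks at gene ends per direction, list members differing by at least 3 peaks, and 5 windows per direction. List members with an end open in 1 list were also eligible. Fos, Egr1 and Per1 were added after their values were seen. Members and lists were chosen with earlier results of these data known.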

Additional observations from a re-analysis of the deposited data

How the results depend on the processing

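No paired analysis was possible because each surgery is 1 pooled list, and for the same reason no replicate could be left out. Of 87 alternative values, 43 stayed within counting error or 1.5 times, 42 moved and 2 were counted as reversed. A net peak number was counted as reversed only where its main value exceeded counting error. Sign changes of smaller nets are among those that stayed. With strong peaks, for example, the macrophage and inflammation net went from −5 to 2 and the spinal cord glia net from 13 to −1. The share of Lam peaks with no Sham peak was 71.2% with a reciprocal overlap of 50%, 45.4% with peaks within 1 kb shared, 38.4% with strong peaks in both lists, 58.8% at equal list sizes and 0.020% for the 5000 strongest; for Sham it was 70.4%, 45.3%, 39.3%, 59.0% and 0.020%. Sites in 1 list numbered 16212 in Lam and 18693 in Sham at a −log10 q of 3, and 57 and 118 at 10. The share of strong Lam-only sites in DCA was 34.9% with reciprocal overlap and 27.5% over all peaks, and in SNA 37.5% and 29.6%; for Sham-only sites it was 32.1% and 25.7%, and 37.3% and 27.8%. Within 5 kb of a gene end lay 18.8% of Lam-only and 16.0% of Sham-only peaks. With 50% of the peak covered, marks of the same surgery met 3.25% (H3K9ac), 5.72% (H3K27ac) and 18.4% (H3K27me3) of Lam-only peaks, from 4.83%, 7.48% and 22.9%, and 3.70%, 2.74% and 12.4% of Sham-only peaks, from 5.23%, 3.85% and 15.2%. The Lam lists of H3K27ac and H3K27me3 are larger than those of Sham, as given above. Genes with an end open in 1 list numbered 681 in Lam within 5 kb, against 882 in Sham, and 110 and 97 with strong peaks. Starts of the promoter table alone, an alternative chosen after seeing the data, gave 753 and 698. Genes with more peaks in Lam numbered 2278 over the gene body and 1537 at a difference of 5, and those with more in Sham 601 at 5.

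The net peak number of the injury response list, 45, was 6 with strong peaks and 0 at gene ends. That of the sensory neuron list, 66, was −7 with strong peaks and 6 at gene ends. That of the axon guidance list, −150, was −17 with strong peaks and 5 at gene ends. The log2 ratio in windows of 0 to 2 genes was −0.24, and −0.29 with strong peaks. In windows of 11 or more genes it was 0.19, and 0.066 with strong peaks. Fewer peaks enter each of these alternatives, and the cause of the changes was not tested. Ranks in the peak names were 98.2% listed up to a −log10 q of 5 in Lam and 98.3% in Sham, against 23.9% and 21.1% in the last 20% of ranks, so absence of a weak peak from a list can be absence from the part of the ranked list analysed here.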

Other observations

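The X chromosome held few peaks in either control list. There were 463 in Sham, 433 in Lam, 554 in SNA and 466 in DCA, which is 2.71 per Mb in Sham and 2.53 in Lam, against 62.0 and 63.9 per Mb over the autosomes. The sparsest autosome had 48.1 per Mb in Sham and 41.8 in Lam. Of the X peaks, 56.2% in Sham and 53.1% in Lam were strong, against 13.6% and 13.1% on the autosomes. Strong X peaks numbered 260 in Sham and 230 in Lam. The Y chromosome had 21 peaks in Sham and 13 in Lam.

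Of the first 100 ranks in the peak names, 49 were listed in Sham and 44 in Lam, while 98.3% and 98.2% of ranks up to a −log10 q of 5 were listed.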
